A study of Mus musculus with 9 samples.

Results

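The genes described here are 8 genes of blood coagulation and fibrinolysis, Plat, Plau, Plaur, F3, Tfpi, Thbd, Procr and Vwf, measured by RNA-seq in mouse heart. They were chosen by symbol for their known roles, with earlier results of these data known, among the 54532 gene identifiers of the count table, and all 8 were found and passed the filter on low counts in every comparison. The study collected heart tissue from 3 groups of male wild-type C57BL/6J mice aged 8 to 10 weeks, with 3 mice per group and 1 library per mouse. In the sham group a thread was passed under the left anterior descending coronary artery without tying it, and the mice were given saline. In the MIRI group (myocardial ischemia/reperfusion injury, I/R) the artery was tied for 30 min and reopened for 24 h, with saline injected into the tail vein. The GXNI group had the same operation and received Guanxinning injection, a preparation made from Danshen and Chuanxiong, at 9 mL/kg by the same route. The comparisons ask which of these genes changed after I/R (MIRI, or MIRI and GXNI together, against sham) and whether GXNI changed them in injured hearts (GXNI against MIRI).

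Coagulation starts when tissue factor (F3) meets plasma factor VII, and it is held back by tissue factor pathway inhibitor (Tfpi) and by the protein C system, in which thrombomodulin (Thbd) turns thrombin into an activator of protein C and the endothelial protein C receptor (Procr) presents protein C to it. Von Willebrand factor (Vwf), made by endothelial cells and megakaryocytes, tethers platelets and carries factor VIII. Clots are dissolved by plasmin, which is cut from plasminogen by tissue-type plasminogen activator (Plat) or by urokinase (Plau) bound to its receptor (Plaur). In a reperfused heart the balance of these activities bears on whether fibrin blocks the small vessels, and Plaur is also carried by migrating neutrophils and monocytes.

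The 9 libraries held 17119454 to 22811295 counts each, of which 23% to 29.8% were mitochondrial, and 3 counts corresponded to 0.132 to 0.175 CPM (the count divided by the library total and multiplied by 1000000; normalized CPM also use the library's TMM scaling factor). The labels name cardiomyocytes, but RNA came from heart tissue, and the study's methods do not say which part of the heart was taken. Summed cardiomyocyte markers were at 28645 to 45501 normalized CPM, and endothelial, fibroblast and leukocyte markers were detected in each library. The 4 atrial markers summed to between 0.589 (sham 3) and 6.64 (MIRI 2) normalized CPM. Over 15207 genes the sham libraries lay together on the first principal component, which held 64.8% of the variance, at -60.0 to -52.2. The I/R libraries did not separate by label, and by rank correlation each of the 6 had its closest match outside its own group. MIRI 1 and MIRI 3, at 61.5 and 83.7 on this component, were closest to GXNI 3, at 93.9, and GXNI 3 to MIRI 3. MIRI 2, at -44.0, was closest to GXNI 1, at -43.7, GXNI 1 to sham 1, and GXNI 2, at 18.7, to MIRI 1. MIRI 2 and GXNI 3 lay farthest from the other libraries of their own labels, so results that rest on them are given with and without both. Whether labels had been exchanged was not tested. In bulk tissue, fewer cells of a type and less RNA per cell cannot be told apart.

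Promoter sequence is shown for the 4 members with an entry in the RefSeq promoter table (GRCm38.p6), because Plaur and Procr rose after I/R while F3 and Tfpi did not pass the test. Each stretch lies before the annotated gene start and is written 5′ to 3′ on the gene's own strand. Capitals mark matches to the AP-1 motif TGANTCA, searched on both strands. The Plaur stretch is at chr7:24462233-24462482 (forward strand), that of Procr at chr2:155750967-155751116 (forward), that of F3 at chr3:121723287-121723536 (forward) and that of Tfpi at chr2:84476776-84477009 (reverse). The outer part of the F3 stretch overlaps an exon of an unnamed gene model on the opposite strand.
Plaur: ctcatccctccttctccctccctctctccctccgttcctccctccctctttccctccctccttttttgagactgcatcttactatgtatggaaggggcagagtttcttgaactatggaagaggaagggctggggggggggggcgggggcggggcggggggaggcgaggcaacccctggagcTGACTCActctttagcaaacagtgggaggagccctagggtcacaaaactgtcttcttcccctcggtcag
Procr: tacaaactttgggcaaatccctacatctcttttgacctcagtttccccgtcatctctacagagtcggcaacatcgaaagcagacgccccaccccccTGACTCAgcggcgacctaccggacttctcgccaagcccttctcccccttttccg
F3: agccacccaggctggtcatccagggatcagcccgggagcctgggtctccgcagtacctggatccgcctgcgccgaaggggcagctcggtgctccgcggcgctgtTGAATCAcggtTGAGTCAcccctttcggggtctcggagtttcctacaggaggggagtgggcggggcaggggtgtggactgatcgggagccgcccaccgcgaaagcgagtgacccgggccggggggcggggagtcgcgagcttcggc
Tfpi: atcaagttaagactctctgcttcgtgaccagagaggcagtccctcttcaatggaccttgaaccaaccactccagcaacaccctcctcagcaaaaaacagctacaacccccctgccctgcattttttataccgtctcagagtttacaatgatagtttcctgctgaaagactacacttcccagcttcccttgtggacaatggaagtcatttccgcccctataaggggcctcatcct

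The AP-1 motif was present once in the Plaur stretch (TGACTCA, starting 70 bases before the annotated gene start), once in that of Procr (TGACTCA, 54 bases before) and at 2 places in that of F3 (TGAATCA and TGAGTCA, 146 and 135 bases before). It was absent from the Tfpi stretch. The table counts its windows back from the RefSeq start, which for Procr lies 100 bases inside the annotated gene. Of 32851 promoter windows of 250 bases, 6.75% held it. The GC box GGGCGG was found in the F3, Plaur and Tfpi windows, against 32.7% of all windows, and the NF-kappa-B consensus in none of the 4 (3.90% of all windows). A match is a string of letters and no site of binding. Whether these motifs bear on the levels of the 4 genes after I/R was not tested.

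Levels per kilobase of exon differed widely among the members in sham hearts. Thbd was highest at 17.8 ± 1.63 CPM per kb (mean ± SD, n = 3), followed by Tfpi at 13.2 ± 0.902, F3 at 7.80 ± 1.25, Vwf at 3.21 ± 0.729, Plat at 2.56 ± 0.216, Plau at 1.52 ± 0.583, Plaur at 1.18 ± 0.274 and Procr at 0.589 ± 0.106. Neighbours in this order had separate ranges except Vwf and Plat, and Plau and Plaur, which overlapped. The endothelial anticoagulant genes Thbd and Tfpi lay above tissue factor in the uninjured heart on this scale. In the 6 I/R libraries the mean of Plaur was 27.2 ± 26.5 CPM per kb, next to Thbd at 31.7 ± 17.4, with a spread as large as the mean.

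**Figure D1:**
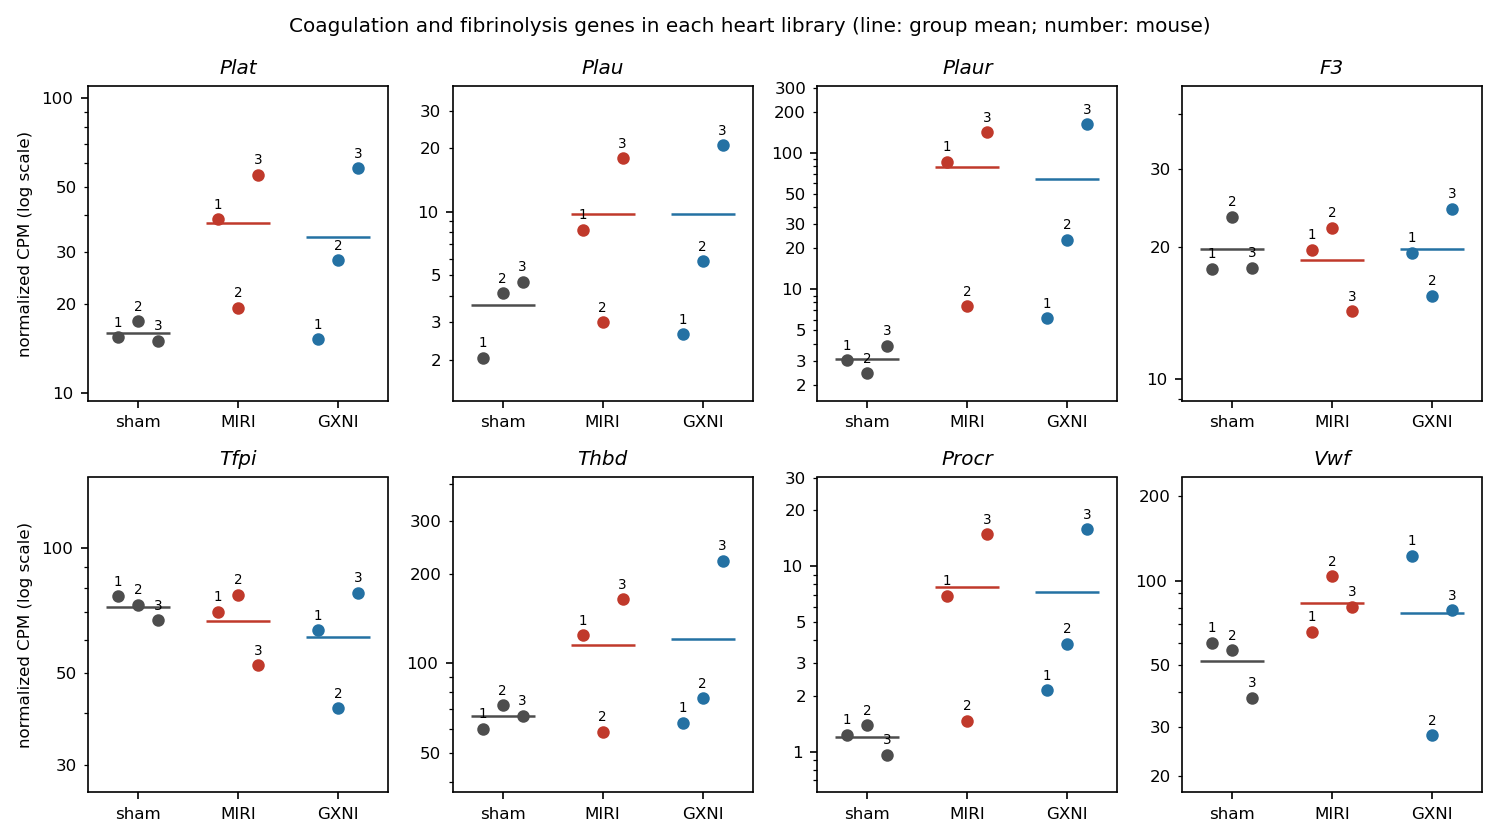
Normalized CPM (log axis) of the 8 members in each library, with the mouse number above each point and a line at the group mean. Plaur and Procr were above all sham libraries in 6 of 6 I/R libraries, whereas the 3 groups overlapped for F3, Tfpi, Thbd and Plau.

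Among the fibrinolysis genes, the urokinase receptor changed most. Plaur (ENSMUSG00000046223, chr7:24462484-24475968, forward strand), which holds urokinase at the surface of leukocytes and endothelial cells, was at 3.01, 2.43 and 3.85 normalized CPM in sham 1 to 3, at 86.0, 7.52 and 141 in MIRI 1 to 3, and at 6.11, 23.1 and 163 in GXNI 1 to 3. All 6 I/R libraries lay above the highest sham library, and MIRI 2 and GXNI 1 lay closest to it. The log2 fold change of I/R against sham was 4.52 ± 1.22 (SE), a fold of 22.9 (edgeR quasi-likelihood test, adjusted p = 0.0875). Without the libraries labelled MIRI 2 and GXNI 3 it was 4.37 ± 1.03 (adjusted p = 0.0778).

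Plat (ENSMUSG00000031538, chr8:22757727-22782844, forward strand), the tissue-type activator released by endothelium, was at 15.4, 17.5 and 14.99 normalized CPM in sham 1 to 3, at 38.7, 19.4 and 55.0 in MIRI 1 to 3, and at 15.2, 28.2 and 57.8 in GXNI 1 to 3. MIRI lay above sham in 3 of 3 libraries and GXNI in 2 of 3, with GXNI 1 inside the sham range. In I/R against sham its log2 fold change was 1.16 ± 0.417, with a 95% interval of 0.23 to 2.09 and an adjusted p of 0.115 by edgeR, and its unadjusted p missed the threshold used for calls.

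Plau (ENSMUSG00000021822, chr14:20836660-20843385, forward strand), urokinase itself, was at 2.04, 4.12 and 4.66 normalized CPM in sham 1 to 3, at 8.23, 2.997 and 17.9 in MIRI 1 to 3, and at 2.63, 5.85 and 20.7 in GXNI 1 to 3. MIRI 2 and GXNI 1 were inside the sham range and the other 4 I/R libraries were above it. Its log2 fold change in I/R against sham was 1.43 ± 0.697 (edgeR, adjusted p = 0.197).

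In the protein C arm, the receptor rose and thrombomodulin did not pass the test. Procr (ENSMUSG00000027611, chr2:155751117-155755471, forward strand) was at 1.24, 1.39 and 0.964 normalized CPM in sham 1 to 3, at 6.93, 1.47 and 14.9 in MIRI 1 to 3, and at 2.14, 3.82 and 15.8 in GXNI 1 to 3. The I/R libraries did not overlap the sham libraries, but the step from sham 2 to MIRI 2 was small, and the sham libraries held 18 to 28 counts of this gene. The log2 fold change of I/R against sham was 2.65 ± 0.817, a fold of 6.26 (edgeR, adjusted p = 0.0966), and it was 2.54 ± 0.653 (adjusted p = 0.0784) without the libraries labelled MIRI 2 and GXNI 3. Leaving out any single sham library, MIRI 1, MIRI 3 or GXNI 3 took its unadjusted p over the threshold used for calls.

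Thbd (ENSMUSG00000074743, chr2:148404466-148408188, reverse strand), the thrombin receptor of the vessel wall, was at 60.2, 72.4 and 66.6 normalized CPM in sham 1 to 3, at 124, 58.9 and 164 in MIRI 1 to 3, and at 63.1, 76.2 and 221 in GXNI 1 to 3. MIRI 2 was below the lowest sham library and GXNI 1 was inside the sham range, so the groups overlapped. Its log2 fold change in I/R against sham was 0.83 ± 0.420 (edgeR, adjusted p = 0.209).

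The initiator and its inhibitor did not pass the test in any of the comparisons. F3 (ENSMUSG00000028128, chr3:121723537-121735048, forward strand) was at 17.8, 23.4 and 17.9 normalized CPM in sham 1 to 3, at 19.7, 22.1 and 14.3 in MIRI 1 to 3, and at 19.4, 15.5 and 24.4 in GXNI 1 to 3. Only GXNI 3 exceeded the sham range, and MIRI 3 and GXNI 2 fell under it. The log2 fold change of I/R against sham was -0.03 (edgeR, adjusted p = 0.920), with a 95% interval of -0.45 to 0.39.

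Tfpi (ENSMUSG00000027082, chr2:84432855-84476775, reverse strand) was at 76.7, 73.1 and 67.0 normalized CPM in sham 1 to 3, at 70.2, 77.3 and 52.2 in MIRI 1 to 3, and at 63.4, 41.1 and 78.1 in GXNI 1 to 3. It was lowest in GXNI 2, and 2 I/R libraries lay above and 3 below the sham range. The log2 fold change of I/R against sham was -0.17 (edgeR, adjusted p = 0.557), with a 95% interval of -0.62 to 0.27.

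Vwf (ENSMUSG00000001930, chr6:125546774-125686679, forward strand) had an order of libraries of its own. It was at 60.1, 56.5 and 38.2 normalized CPM in sham 1 to 3, at 65.7, 104 and 80.6 in MIRI 1 to 3, and at 123, 28.0 and 78.5 in GXNI 1 to 3. GXNI 1 and MIRI 2, the I/R libraries with the least Plaur, held the most Vwf, and GXNI 2 held the least of all 9. The log2 fold change of I/R against sham was 0.64 ± 0.383 (edgeR, adjusted p = 0.275).

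A gene was called where its fold was at least 1.5 and its unadjusted p at most 0.01. The study used these thresholds on tests by DESeq2, whereas calls here are by edgeR unless DESeq2 is named. In I/R against sham 2 of the 8 members were called higher (Plaur and Procr) and 0 lower, against 5.52% higher and 2.85% lower of the 15207 genes tested. The same 2 members had 6 I/R libraries above all sham libraries, which 7.96% of the tested genes had. The median log2 fold change was 0.997 over the 8 members and 0.01 over all genes tested. None of the 8 reached an adjusted p of 0.05 by edgeR. An unadjusted p under 0.05 was found for 3 of them and for 4488 of the 15207 genes tested. At a fold of at least 1.5 with an adjusted p of at most 0.05, 0.0263% of these genes were higher and 0.0329% lower. By DESeq2, Plaur, Procr and Plat were called, with adjusted p of 0.000802, 0.00412 and 0.0404, against 5.18% of genes called higher. With the libraries labelled MIRI 2 and GXNI 3 left out, Plaur and Procr were called, against 6.60% of genes called higher. Leaving out any single sham library took both Plaur and Procr over the p threshold (adjusted p of Plaur 0.236 to 0.279), with 2.19%, 1.63% and 1.99% of genes called higher without sham 1, 2 and 3. Leaving out MIRI 1, MIRI 3 or GXNI 3 left Plaur as the one member called, against 3.44%, 3.54% and 3.77% of genes. Without MIRI 2 or without GXNI 1, Plat was called beside these 2, against 9.67% and 9.57% of genes, and 2 and 3 members then had an adjusted p of at most 0.05 (edgeR). Without GXNI 2, Vwf was called beside Plaur and Procr, against 4.67% of genes.

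**Figure D2:**
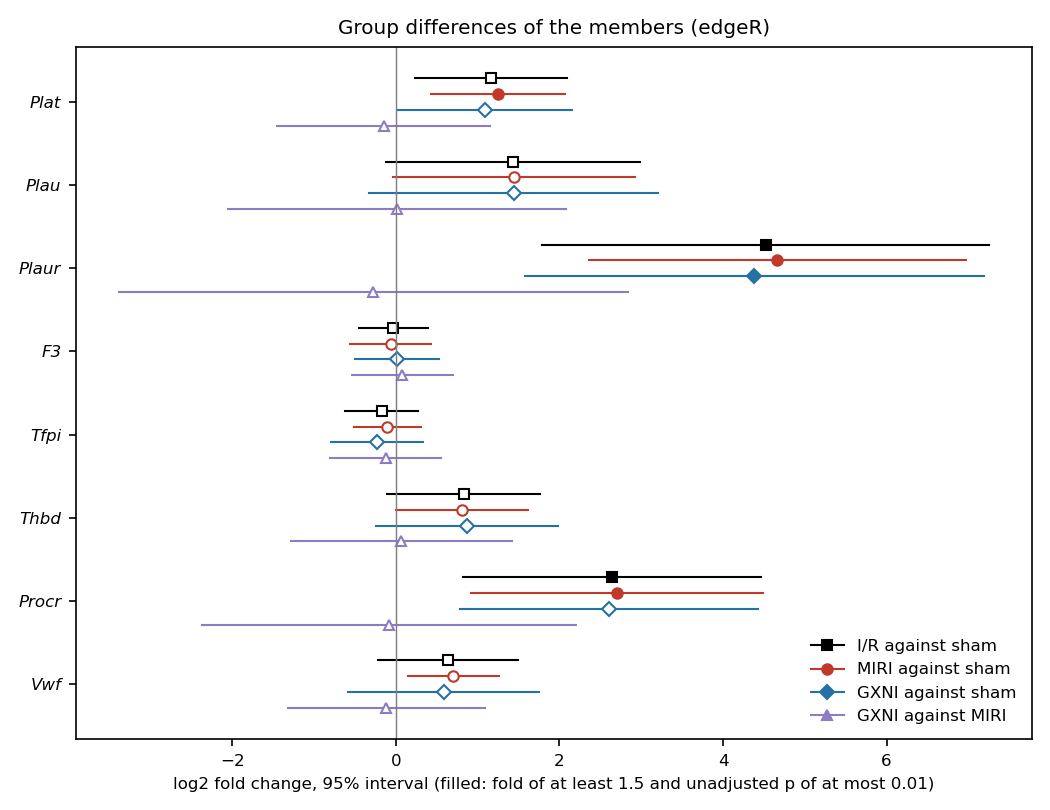
Log2 fold change (x axis) of each member in the 4 comparisons, by edgeR, with 95% intervals, and filled symbols where the call thresholds were met. Plaur and Procr lay at 4.52 and 2.65 in I/R against sham, while the intervals of GXNI against MIRI spanned 0 for all 8 members.

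In MIRI against sham 3 of the 8 members were called higher, Plaur, Procr and Plat, and 0 lower, against 6.15% and 2.82% of 14644 genes. Their log2 fold changes were 4.67 ± 0.977 for Plaur, 2.71 ± 0.755 for Procr and 1.25 ± 0.348 for Plat (edgeR, adjusted p = 0.0759, 0.100 and 0.0996). Vwf had all MIRI libraries above all sham libraries too, at 0.70 ± 0.234 (edgeR, adjusted p = 0.124). Thus 4 of 8 members were higher with no overlap, against 16.7% of the genes tested, a share that leaves out genes lower with no overlap. The set of called members changed in size with each library left out. Without MIRI 2, 5 members were called higher, with log2 fold changes of 5.20 ± 0.265 for Plaur, 3.18 ± 0.361 for Procr, 1.86 ± 0.404 for Plau, 1.56 ± 0.165 for Plat and 1.12 ± 0.146 for Thbd and with adjusted p of 7.97e-05 to 0.00900 (edgeR). In that fit 16.9% of 15207 genes were called higher and 13.3% lower. Without MIRI 3, Plaur was the one member called, at 3.94 ± 0.938 (adjusted p = 0.179), while Procr was at 1.84 ± 0.639 and Plau at 0.66 ± 0.530, against 3.19% of genes called higher. Without MIRI 1 or without sham 3, Plaur was again the one member called, against 2.90% and 2.41% of genes. Leaving out sham 1 or sham 2 left 0, against 2.39% and 2.25% of genes.

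GXNI against sham gave 1 called member, Plaur, at a log2 fold change of 4.38 ± 1.18 (edgeR, adjusted p = 0.219), against 2.67% of 14695 genes called higher and 1.54% lower. Procr was above sham in 3 of 3 GXNI libraries, as 13.5% of the genes tested were, at 2.61 ± 0.766 (adjusted p = 0.219), but its unadjusted p was over 0.01. Plat was at 1.09 ± 0.449 (adjusted p = 0.248). Without the library labelled GXNI 3 the log2 fold changes of Plaur and Procr were 2.24 ± 0.532 and 1.31 ± 0.353, both called (adjusted p = 0.181 and 0.209), against 2.11% of genes called higher, and that of Thbd was 0.07 ± 0.133. Without GXNI 1, Plaur, Procr and Plat were called at 4.92, 3.04 and 1.44 (adjusted p = 0.0198, 0.0269 and 0.0293), against 10.7% of genes. Without GXNI 2, Plaur was the one member called, against 1.58% of genes. Without any single sham library, 0 members were called, against 0.781%, 0.551% and 0.640% of genes without sham 1, 2 and 3.

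GXNI against MIRI called none of the 8 members, and 0 of them had an unadjusted p under 0.05 by edgeR or by DESeq2. Of 14762 genes, 0 were called higher and 3 lower (0.0203%), and 47 had an unadjusted p under 0.05 by edgeR. The log2 fold changes of GXNI against MIRI lay between -0.27 for Plaur and 0.08 for F3, and the 2 groups overlapped for each member, whereas 1.29% of genes had all GXNI libraries above and 1.38% all below the MIRI libraries. The intervals were wide where the libraries of a group spread most. They ran from -3.38 to 2.83 for Plaur, from -2.37 to 2.20 for Procr and from -2.05 to 2.08 for Plau, and from -0.54 to 0.70 for F3, so a change of several fold was not detectable in the first 3 genes. These values moved when the libraries labelled MIRI 2 and GXNI 3 were left out. Both were singled out on these data for lying far from their own group and near the other one, so leaving them out moves the groups apart by construction, and the calls below are no independent sign of a GXNI effect. With both left out, 2 GXNI libraries were compared with 2 MIRI libraries, and 3 members were called lower, Plaur at -2.94 ± 0.616, Procr at -1.85 ± 0.465 and Thbd at -1.03 ± 0.207 (edgeR, adjusted p = 0.188, 0.189 and 0.188), against 3.47% of 14984 genes called lower and 1.52% higher. The other 5 members were not called, with Plat at -1.10 and Plau at -1.60 (adjusted p = 0.206 and 0.214), F3 at 0.05, Tfpi at -0.22 and Vwf at 0.07. With only one of the 2 libraries left out, 0 members were called.

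A shared order of libraries was seen in 5 members. For Plat, Plau, Plaur, Thbd and Procr the highest library was GXNI 3, followed by MIRI 3, MIRI 1 and GXNI 2, and the sham, MIRI 2 and GXNI 1 libraries came after these 4. The same 4 libraries in the same order led 844 of the 15207 genes tested (5.55%), and in any order 18.3%. F3, Tfpi and Vwf did not have this order. These 4 libraries are 2 of each group by label, and for all 5 genes the SD inside MIRI and that inside GXNI were larger than the difference between the group means.

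Markers of other cell types moved with some of the members. The 10 neutrophil markers summed to 73.1 to 111 normalized CPM in sham, to 787, 63.6 and 729 in MIRI 1 to 3 and to 71.9, 262 and 756 in GXNI 1 to 3, with 1 of 10 called higher in I/R against sham, a median log2 fold change of 2.92 and no marker at 0. The 4 libraries with the most Plaur were those with the most neutrophil marker RNA. Plaur was still above the sham range in MIRI 2 and GXNI 1, where the neutrophil sum was below the lowest sham value. By the mean log2 CPM of the same 10 markers these 2 libraries, at 1.42 and 2.05, were inside the sham range of 1.37 to 2.54. The 10 endothelial markers summed to 942 to 1218 in sham, 951 to 1439 in MIRI and 998 to 1613 in GXNI, with 0 of 10 called, and the largest sums were in GXNI 3 and MIRI 3, the libraries with the most Thbd. The 4 endocardial markers, with 0 of 4 called, summed to 39.8 to 56.4 in sham and were highest in GXNI 1 (81.8) and MIRI 2 (68.9) and lowest in GXNI 2 (31.0), as was Vwf. The 7 platelet markers summed to 18.4 to 79.6 over the 9 libraries with Gp1bb at 0 in each. The 11 monocyte and macrophage markers, with 0 of 11 called, summed to 568 to 666 in sham, to 801, 386 and 869 in MIRI 1 to 3 and to 683, 521 and 724 in GXNI 1 to 3. Sums of cardiomyocyte and of fibroblast markers were lowest in the 4 libraries with the most Plaur. The 8 cardiomyocyte markers, with 0 of 8 called, summed to 41947 to 44783 in sham and were lowest in MIRI 1 (28645) and highest in MIRI 2 (45501), and 4 of the 8 were below all sham libraries in 6 of 6 I/R libraries, against 8.89% of genes. The 7 fibroblast markers, with 0 of 7 called, summed to 939 to 1016 in sham and were lowest in GXNI 3 (508) and highest in GXNI 1 (1203). A score is the mean log2 CPM of a list. Over the 9 libraries, which share one main axis of variation, the log2 CPM of Plaur correlated with most scores. The r was 0.95 for neutrophil, 0.79 for endothelial, 0.73 for monocyte and macrophage and 0.70 for platelet markers. It was -0.94 for cardiomyocyte, -0.86 for fibroblast, -0.75 for mesothelial and -0.55 for atrial markers. Smooth muscle, endocardial and erythroid markers were at -0.40, -0.30 and 0.07. The part of these cell types in the members' values was not tested.

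**Figure D3:**
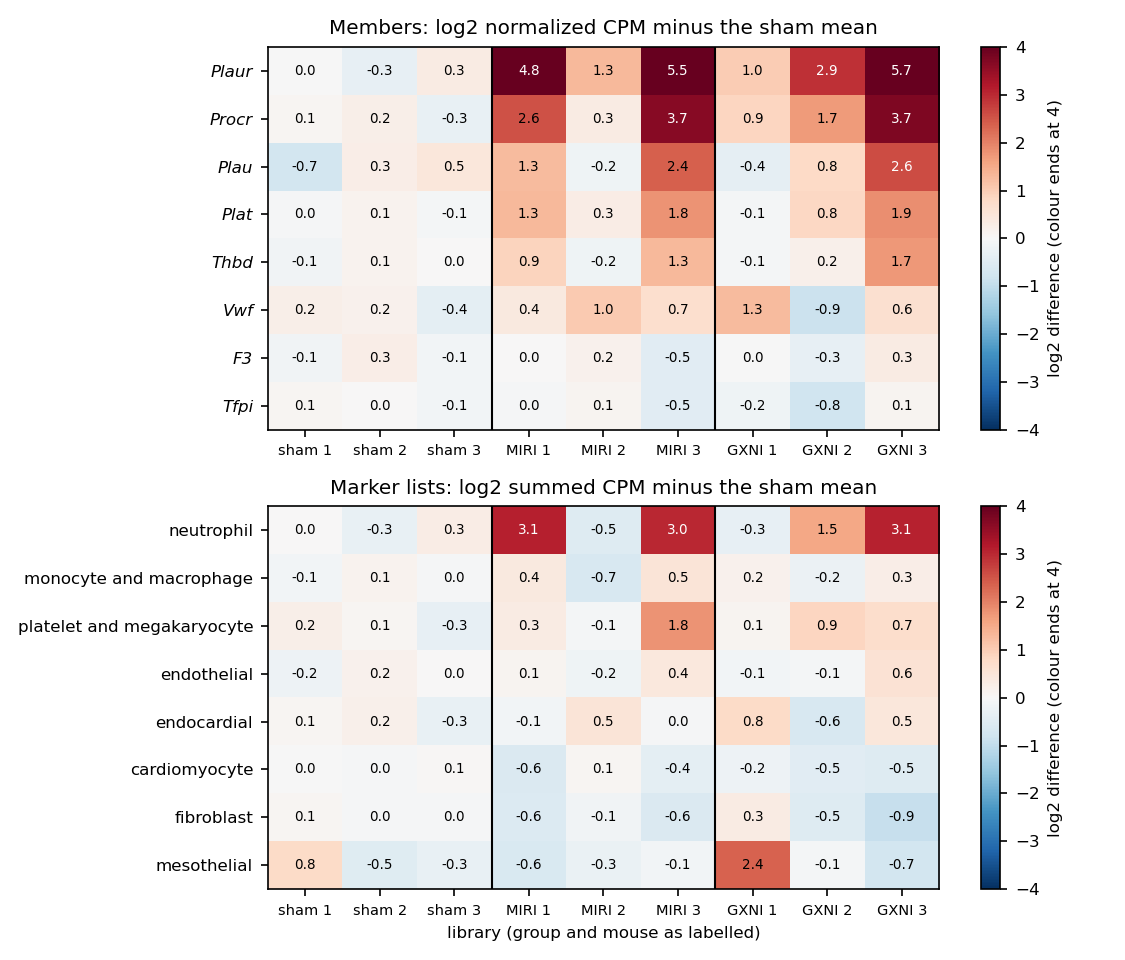
Heat map of the 8 members (top, log2 normalized CPM minus the sham mean) and of 8 marker lists (bottom, log2 summed CPM minus the sham mean) in each library, with the difference printed in each cell. Plaur, Procr, Plau, Plat and Thbd were highest in MIRI 1, MIRI 3 and GXNI 3, where the neutrophil sums were also highest, and Vwf was highest in MIRI 2 and GXNI 1.

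Ratios of 2 genes within a library do not depend on library size. The Plaur to Plau ratio of counts, on the log2 scale, was -0.16 ± 0.661 in sham (mean ± SD, n = 3) and 2.31 ± 0.932 in I/R (n = 6), a difference of 2.46 with no overlap (two-sided exact permutation test, p = 0.0238, the smallest value that 84 splits allow, adjusted p = 0.0952 over the 4 ratios tested). The ratio was above each sham value in 6 of 6 I/R libraries. The F3 to Tfpi ratio was -1.88 ± 0.230 in sham and -1.72 ± 0.168 in I/R (exact permutation p = 0.286), with overlapping groups. Neither ratio reached an adjusted p of 0.05.

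**Figure D4:**
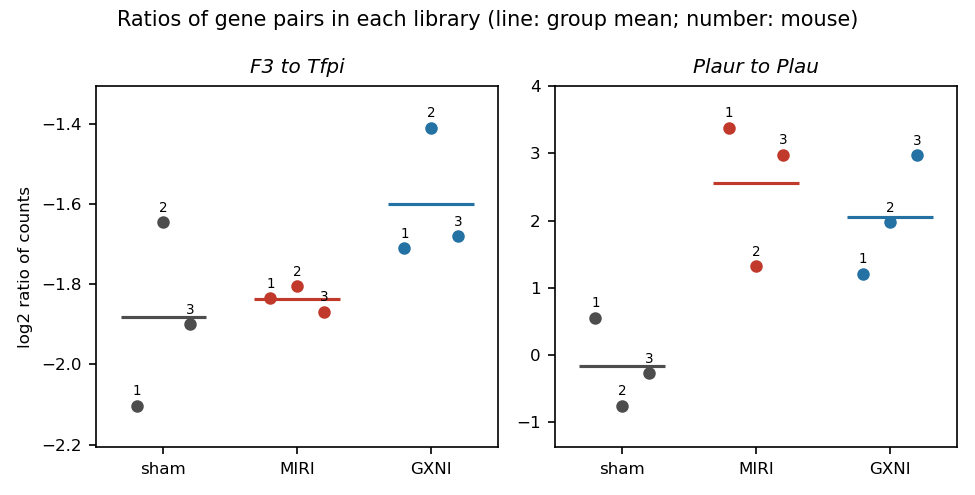
Log2 ratio of counts (y axis) for 2 gene pairs in each library, with the mouse number above each point and a line at the group mean. The Plaur to Plau ratio was above the sham libraries in all 6 I/R libraries, and the groups overlapped for the F3 to Tfpi ratio.

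Of 50 other genes of the pathway, 41 had a count in any library and 27 passed the filter in I/R against sham, where 7 were called higher and 0 lower, against 5.52% and 2.85% of all genes tested, with a median log2 fold change of 0.56. None of the 27 reached an adjusted p of 0.05 by edgeR. An unadjusted p under 0.05 was found for 17 of them, and for 4488 of all 15207 genes tested. Without any single sham library 2 or 3 were called higher, against 1.63% to 2.19% of genes, and without MIRI 2 or GXNI 1 it was 12 or 11, against 9.67% and 9.57%. The 7 called genes had adjusted p of 0.0852 to 0.0884 by edgeR.

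Plasminogen itself (Plg), a liver product, had 1 count in sham 2, 1 in GXNI 1 and 0 in the other 7 libraries. The subunits of its cell-surface receptor, Anxa2 and S100a10, which bring plasminogen and Plat together, rose by log2 fold changes of 2.09 ± 0.555 and 1.01 ± 0.271. Anxa2 was at 46.4, 64.4 and 52.6 normalized CPM in sham 1 to 3, at 249.6, 92.5 and 394 in MIRI 1 to 3, and at 75.8, 183 and 395 in GXNI 1 to 3, with no overlap between sham and I/R. Genes of 2 coagulation factors rose as well. F10, the protease that cuts prothrombin, was at 0.149 to 1.07 normalized CPM in sham and 1.09 to 41.1 in I/R, with a log2 fold change of 5.16 ± 1.42. In MIRI 2 and GXNI 1 it was at 1.12 and 1.09, next to sham 3 at 1.07. F10 lost its call when any single sham library was left out. F13a1, the macrophage transglutaminase subunit that crosslinks fibrin, was at 61.8 to 75.1 in sham and 88.9 to 162 in I/R, with 0.87 ± 0.208.

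The adhesive protein thrombospondin 1 (Thbs1) had the largest log2 fold change of the 27, at 6.33 ± 1.46, and was at 7.09, 2.93 and 6.53 normalized CPM in sham 1 to 3, at 531, 37.9 and 1008 in MIRI 1 to 3, and at 20.8, 175 and 891 in GXNI 1 to 3. Itgb3, the beta subunit of the platelet fibrinogen receptor that endothelial cells and macrophages also make, and F2rl1, a protease-activated receptor cut by the tissue factor complex and by trypsin-like proteases, rose by 2.27 ± 0.639 and 1.93 ± 0.461. The thrombin receptor F2r was at 0.56 ± 0.181 (adjusted p = 0.103) and the protein C cofactor Pros1 at 0.29 ± 0.136 (adjusted p = 0.184), and neither passed.

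**Figure D5:**
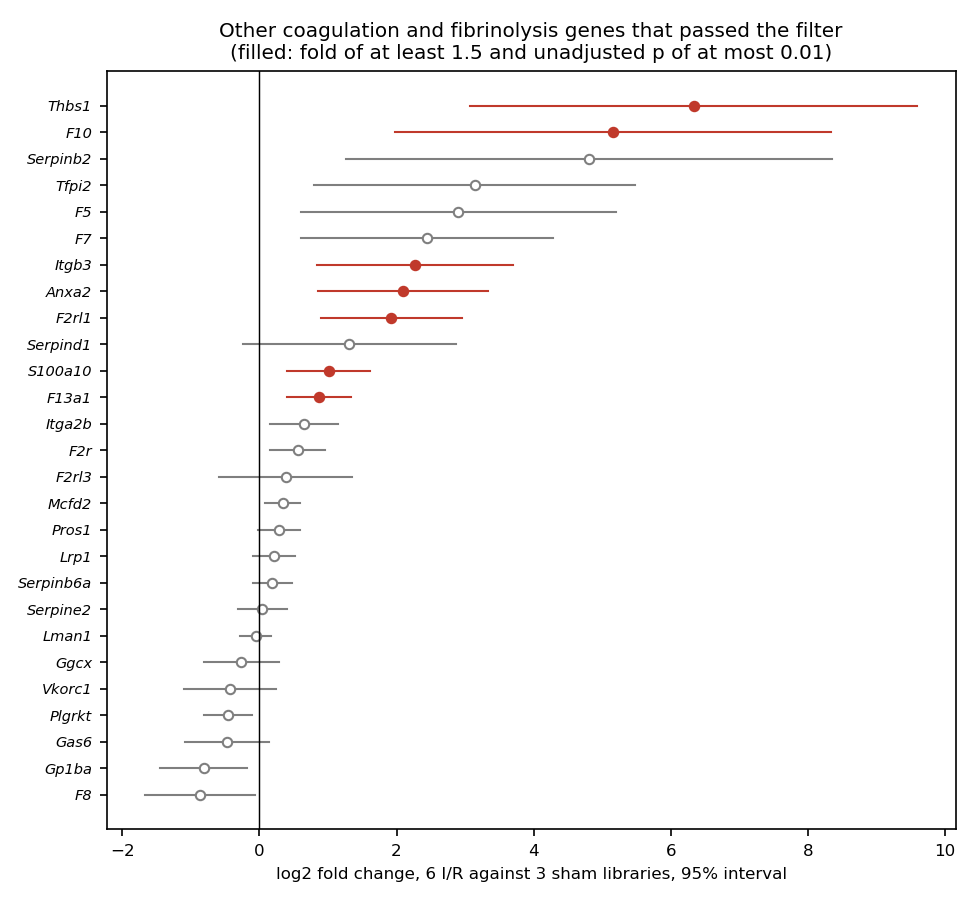
Log2 fold change (x axis) of the 27 other pathway genes tested in I/R against sham, by edgeR, with 95% intervals and filled symbols for the 7 called genes. Thbs1, F10 and Itgb3 were the called genes with the largest values, at 6.33, 5.16 and 2.27.

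In MIRI against sham 24 of these pathway genes passed the filter, 8 were called higher, which adds F2r at 0.74 ± 0.154 to the 7 above, and 1 lower, F8 at -0.94 ± 0.261 (edgeR, adjusted p = 0.0992), against 6.15% and 2.82% of all genes tested. F8, the cofactor that Vwf carries in plasma, was at 2.36, 2.23 and 2.41 normalized CPM in sham 1 to 3, at 1.44, 1.18 and 0.996 in MIRI 1 to 3, and at 2.33, 1.09 and 0.580 in GXNI 1 to 3. It was lower in 3 of 3 MIRI libraries, whereas GXNI 1 was inside the sham range, and its call was lost without any single sham or MIRI library. Leaving out single libraries gave 2 (without sham 3) to 13 (without MIRI 2) pathway genes called higher, against 2.41% and 16.9% of genes. In GXNI against sham 5 of 24 were called higher, Thbs1, Anxa2, F13a1, S100a10 and F10, and 0 lower, against 2.67% and 1.54% of genes. Without any single sham library 0 were called, without GXNI 2 or GXNI 3 there were 2, against 1.58% and 2.11% of genes, and without GXNI 1 there were 9, against 10.7%. In GXNI against MIRI 0 of 27 were called, and 0 had an unadjusted p under 0.05 by edgeR. With the libraries labelled MIRI 2 and GXNI 3 left out, 1 of 27 was called lower, F5, named here after its values were seen, a share near the 3.47% of all genes called lower in that fit.

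The 2 protein-coding genes most like each member were taken by Pearson correlation of log2 CPM over the 9 libraries, among 10124 genes with a mean of at least 5 CPM, as a description over libraries that share one main axis of variation. They were Rcc1 and Ctdp1 for Plat (r = 0.997 and 0.996), Tm4sf1 and Tgfb1 for Plau (0.983 and 0.982), Wdr4 and Diaph1 for Plaur (0.997 and 0.997), Nfkb1 and Map4k5 for Thbd (0.993 and 0.991) and Tpm4 and Samd4b for Procr (0.994 and 0.994). The closest genes were less alike for the members that did not share the common order of libraries. They were Taf9b and Spats2l for F3 (0.883 and 0.838), Rif1 and Arid2 for Tfpi (0.902 and 0.895) and Ptgfrn and Sipa1l1 for Vwf (0.907 and 0.902).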

How the data were processed

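Per the labels and the study's methods, the authors extracted total RNA from mouse heart tissue with TRIzol, discarded reads of poor quality or with adapter, used HISAT2 for alignment to mm10, and used featureCounts of Subread to count reads for each gene. The study tested differences between groups with DESeq2. Versions, gene annotation and strand setting are not given in the sources used here. The deposited table holds raw counts for 54532 Ensembl identifiers, of which 54409 matched a GENCODE M21 symbol, and 9 libraries. The members and gene lists were chosen with earlier results of these data known.

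Each comparison was fitted on its own libraries with edgeR 4.0.16 (R 4.3.3, TMM normalization, filterByExpr, quasi-likelihood F test), with p-values adjusted over all genes tested by Benjamini-Hochberg. A call needed an unadjusted p of at most 0.01 and a change of at least 1.5 times. I/R against sham set the 6 MIRI and GXNI libraries against the 3 sham libraries. MIRI, GXNI and I/R comparisons share the sham libraries. Normalized CPM used the TMM factors and log2 ratios a prior count of 0.5. The fits were also run on simulated counts with the same dispersion for every gene. That setting was not matched to the spread among the I/R libraries, so it cannot show how the fits behave on them. Alternatives were DESeq2 1.42.0, RLE normalization, no filter, mitochondrial genes left out, one fit over all libraries, a replicate block, adjusted p of at most 0.05, and leaving libraries out. The named genes were the 8 members, pathway genes called in I/R or MIRI against sham with Plg, F2r and Pros1, and the 2 genes most like each member. Chi-square per degree of freedom was at least 13.2 for each pair of libraries, so no pair agreed within sampling noise. One pathway gene, and the 2 of 4 ratios that need it, are not reported here. Marker lists of cell types came from textbook knowledge.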

Additional observations from a re-analysis of the deposited data

How the results depend on the processing

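With an adjusted p of at most 0.05 in place of the unadjusted threshold, 0 members and 0 pathway genes were called in any comparison by edgeR with all libraries and the filter, higher or lower. In MIRI against sham, edgeR without the filter called 4 members higher (Vwf added), against 5.75% of all genes. Of these, 3 had an adjusted p of at most 0.05 (lowest 0.00577), as had 10 pathway genes. DESeq2 called 3 members higher in that comparison (lowest adjusted p 0.000253) and, lower, Gp1ba in place of F8, against 5.34% and 2.72% of all genes. DESeq2 called 2 members and 10 pathway genes higher in GXNI against sham, and 11 pathway genes higher and 1 lower in I/R against sham (3.56%, 5.18% and 2.31% of all genes). Without the filter, 2 members and 11 pathway genes were called higher in GXNI against sham, 11 pathway genes higher in I/R against sham (3.57% and 4.18% of all genes), and 0 pathway genes lower in MIRI against sham (2.88%). In 1 fit over all 9 libraries, 1 member was called higher in I/R against sham and 1 in MIRI against sham (4.09% and 3.52% of all genes). It was Plaur in both, and Procr was not called. Pathway genes called in that fit were 0 lower for MIRI and 3 higher for GXNI against sham (1.74% and 1.97% of all genes). Plau in GXNI against MIRI moved to -0.0037 in it. Same-numbered libraries of 2 groups correlated at -0.443 to 0.701 in their deviations from group means, and not each library correlated best with its own number. With 3 libraries per group this cannot show whether they share more than a number. With the replicate block, 1 member was called higher in I/R against sham, 1 in the MIRI and 0 in the GXNI comparison with sham (5.92%, 4.77% and 2.33% of all genes). The called member was again Plaur and not Procr. With this block 0 pathway genes were lower in MIRI against sham (2.51% of all genes), and Plau and Thbd in GXNI against MIRI moved to -0.13 and -0.044. With the libraries labelled MIRI 2 and GXNI 3 left out of GXNI against MIRI, 3 members and 1 pathway gene were called lower, Plau and Thbd moved to -1.60 and -1.03, and Vwf to 0.067.

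Leaving out 1 library at a time, members called higher numbered 0 to 3 in I/R against sham, 0 to 5 for MIRI and 0 to 3 for GXNI against sham. Pathway genes called higher numbered 2 to 12, 2 to 13 and 0 to 9 in these comparisons, and pathway genes called lower 0 to 2, 0 to 3 and 0 to 1. The most were called lower without GXNI 1, MIRI 2 and GXNI 1 respectively, where 5.70%, 13.3% and 7.08% of all genes were called lower. The lowest and highest log2 fold changes of F3 were -0.11 and 0.10 in I/R against sham, -0.21 and 0.095 for MIRI and -0.17 and 0.17 for GXNI against sham, and those of Tfpi -0.23 and 0.041 for MIRI against sham. With GXNI set against MIRI they were -0.79 and 0.20 for Plat, -1.19 and 0.77 for Plau, -2.41 and 0.44 for Plaur, -0.10 and 0.23 for F3, -0.72 and 0.38 for Thbd, -1.37 and 0.77 for Procr, -0.35 and 0.090 for Tfpi and -0.65 and 0.28 for Vwf, none of them called. The I/R minus sham difference of log2 ratios ran from 0.055 to 0.28 for F3 to Tfpi and from 2.17 to 2.82 for Plaur to Plau, whose exact permutation p without a sham library was 0.0714, the smallest that 2 sham libraries allow. RLE normalization and leaving out mitochondrial genes changed no call of a member. The cause of these moves was not tested. With 18 to 28 counts of Procr, 49 to 72 of Plaur and 38 to 87 of Plau in sham, counting error there is largest for these 3 members.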
